A study of Mus musculus with 4 samples.

Results

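Chimeric eCLIP reads, in which a miRNA is ligated to the stretch of RNA it was bound to inside Argonaute, were examined where that RNA came from the protein-coding and tRNA genes of the mouse mitochondrial chromosome. The members were chosen by position: every peak on chrM whose first base lay at or beyond 2681, on either strand and for every miRNA, which takes in the sequence after the ribosomal RNA genes. This rule found 29 peaks in the control library and 29 in the mimic library, of 20754 and 21872 peaks in all. A peak was listed once for each miRNA found in it, giving 881 miRNA peaks of 93468 in the control library and 1090 of 100897 in the mimic library. They held 11915 of 232408 chimeric reads in the control library, or 5.13% (95% interval, 5.04 to 5.22), and 15398 of 259207 in the mimic library, or 5.94% (5.85 to 6.03).

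Both libraries were made from plantaris muscle of 5-month-old male C57BL/6J mice after 10 days of mechanical overload (MOV), in which part of the gastrocnemius and soleus is cut away so that the plantaris bears more load. The control muscle had received a lentivirus with a scrambled sequence and the mimic muscle a lentivirus carrying miR-1, and both viruses drove their insert and a TurboGFP reporter from a mouse CMV promoter, which is not restricted to muscle fibres. There was 1 library per group, so no test between the groups was possible. All intervals are exact 95% intervals on reads rounded to whole numbers and cover counting error only. The methods describe giving mice the control virus in the left leg and the mimic virus in the right leg. Neither the methods nor the labels say whether these 2 libraries came from the legs of 1 mouse. Of 7 skeletal muscle fibre genes looked for (Acta1, Ckm, Ttn, Myh1, Myh4, Atp2a1 and Tnnt3), 7 had peaks in both libraries.

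Mitochondrial DNA encodes subunits of the respiratory chain and of ATP synthase, together with the tRNAs and rRNAs that the organelle uses to translate them. Nearly all of it is copied as long transcripts in which tRNAs sit between the protein genes and are cut out to release the mRNAs, and those mRNAs have almost no untranslated sequence. A miRNA in Argonaute mainly recognises its target through the seed, the bases just after its 5′ end. Most work on miRNAs concerns nuclear-encoded mRNAs in the cytoplasm. In muscle, miR-1a, miR-133a and miR-206 are the classical muscle-enriched miRNAs, while miR-142a is a miRNA of blood cells.

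The following miRNAs carried most of the results for which a mature sequence was at hand, and they are shown so that the seeds can be compared. Capitals mark bases 2 to 8, and the sequences are those of RefSeq, 5′ to 3′.
miR-21a-5p: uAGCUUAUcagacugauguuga
miR-206-3p: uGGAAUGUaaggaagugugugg
miR-142a-3p: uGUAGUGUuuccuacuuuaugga
miR-24-3p: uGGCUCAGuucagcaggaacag
let-7b-5p: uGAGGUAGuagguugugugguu
let-7c-5p: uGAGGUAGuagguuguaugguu
miR-196a-5p: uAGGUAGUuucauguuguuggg
miR-199a-3p: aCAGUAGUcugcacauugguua
miR-155-5p: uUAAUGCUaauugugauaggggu
let-7b-5p and let-7c-5p share 1 seed, whereas miR-196a-5p holds all but the first base of that seed, AGGUAG, moved by 1 position. miR-199a-3p and miR-199b-3p have the same mature sequence and were counted together as miR-199a/b-3p.

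The target stretches below are the plus strand of chrM, 5′ to 3′, and are examples in which a leading miRNA had the complement of its seed bases 2 to 7 inside its peak. Capitals mark that complement. Labels give the build of the files as mm10, and the letters were read from the NCBIM37 chrM, which has the same length and 37 of 37 gene positions in common with RefSeq's GRCm38.p6.
TrnM, miR-21a-5p, chrM:3845-3898: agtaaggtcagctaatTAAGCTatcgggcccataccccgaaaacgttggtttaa
ND1, miR-206-3p, chrM:3526-3591: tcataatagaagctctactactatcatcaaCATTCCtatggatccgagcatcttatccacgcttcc
ND5 site 1, miR-206-3p, chrM:12696-12782: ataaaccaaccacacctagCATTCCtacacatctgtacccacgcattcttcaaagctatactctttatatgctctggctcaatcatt
ND5 site 2, miR-24-3p, chrM:12957-13017: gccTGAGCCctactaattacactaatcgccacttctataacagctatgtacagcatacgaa
ND5 site 3, miR-206-3p, chrM:13139-13204: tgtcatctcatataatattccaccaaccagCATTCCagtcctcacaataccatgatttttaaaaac
CYTB site 2, miR-142a-3p, chrM:14288-14327: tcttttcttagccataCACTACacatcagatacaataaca
CYTB site 3, let-7 seed, chrM:15038-15103: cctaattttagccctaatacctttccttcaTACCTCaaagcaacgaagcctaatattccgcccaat
The first stretch lies in the tRNA for methionine and the others lie in coding sequence. The same 6 letters, CATTCC, occur in the ND1 stretch and in those of ND5 sites 1 and 3. They also occur at chrM:13510-13515 in ND5 site 4, where the peak had 127 miR-206-3p reads in control and 149 in mimic.

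By gene, reads were concentrated at a few places. ND1, a core subunit of NADH dehydrogenase (complex I), had 3816 reads (3696 to 3939) in the control library and 5306 (5164 to 5451) in the mimic library, which was 32.0% and 34.5% of all mitochondrial mRNA and tRNA reads. TrnM, the methionine tRNA, had 3750.0 (3631 to 3872) and 4287 (4159.6 to 4417). ND5, another complex I subunit of the membrane arm, had 2420.5 (2325 to 2518) and 3407 (3294 to 3523). These 3 genes were the highest in both libraries. Per kilobase of gene, TrnM had 54348 reads in control and 62135 in mimic, ahead of ND1 with 3987 and 5545 and of ND5 with 1327 and 1868.

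The remaining complex I genes were lower. ND4 had 876 reads in the control library and 975 in the mimic library, or 636 and 708 per kilobase. ND2 had 244 and 299, ND3 had 19.8 and 29.8, and no peak was listed in ND4L. ND6, the only protein gene whose sense strand is the minus strand, had 14.8 reads (8.40 to 24.7) and 36.3 (25.2 to 49.8). The 1 minus-strand peak of each library was the ND6 peak, with 9 and 15 of the miRNA peaks, and the other 28 peaks of each library lay on the plus strand. Every peak on a protein or tRNA gene was on that gene's sense strand.

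For the other complexes, CYTB, the cytochrome b subunit of complex III, had 573 reads (527 to 622) in control and 754 (701 to 809.8) in mimic. COX1, the catalytic subunit of cytochrome c oxidase (complex IV), had 177 (152 to 205) and 303 (269.8 to 339), whereas no peak was listed in COX2 or COX3. Of the ATP synthase (complex V) genes, ATP6 had 0.449 reads in the control library only and ATP8 had no peak. In all, 9 of 13 protein genes had a peak in the control library and 8 in the mimic library. Among 20 tRNA genes in the region, TrnM had a peak in both libraries, TrnL1, a leucine tRNA, had 23.0 reads in the control library only, and 18 had no peak in either.

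The 4 protein genes without a peak in either library, COX2, ATP8, COX3 and ND4L, all lay in a stretch that has close copies in the nuclear genome. From chrM:6394 to 11042, 98.9% of the 30-base words also occurred in the nuclear chromosomes of NCBIM37, and by gene this share was 100% for COX2, ATP8, ATP6, COX3 and ND4L and 99.1% for ND3. It was 0% for ND1 and TrnM and 17.8% for ND5. Peaks lying wholly in the stretch held 20.3 reads in control and 29.8 in mimic. Shared words did not bar a peak everywhere, since the ND3 peak of the control library had 95.1% of its words in the nuclear genome and the ND5 peak with the most miR-24-3p reads had 88.2%. How the authors treated reads that mapped to more than 1 place is not given in the sources used here, and its part in the missing genes was not tested.

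**Figure D1:**
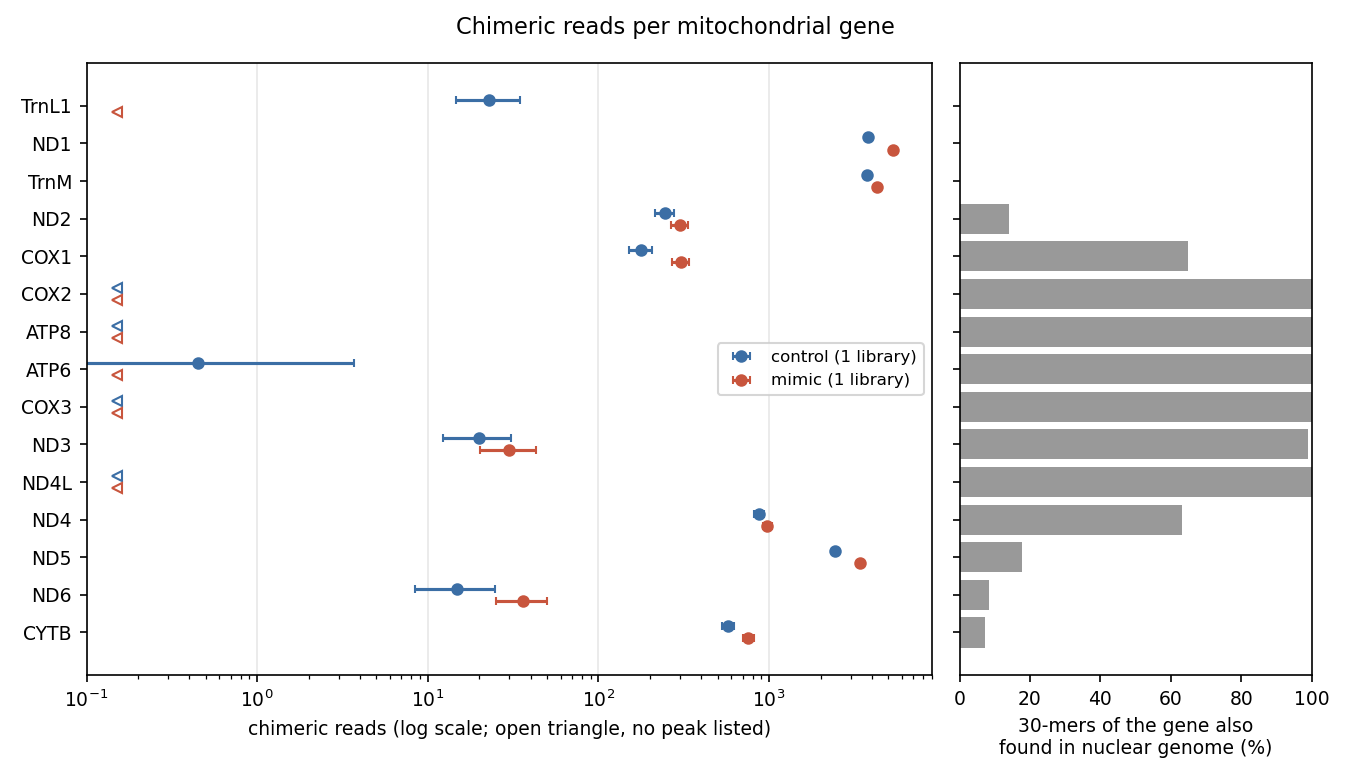
Left, chimeric reads on each mitochondrial protein gene and each tRNA gene with a peak (log axis, genes in chromosome order), as points with 95% counting intervals for the 1 control and the 1 mimic library, and open triangles where no peak was listed. Right, the percent of the gene's 30-base words that also occur in the nuclear genome, where bars reach 100% for COX2, ATP8, ATP6, COX3 and ND4L while ND1 and TrnM are at 0%.

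When overlapping or abutting peaks of both libraries were merged, 26 sites resulted, of which 18 had reads in both libraries, 3 in the control only and 5 in the mimic only. The unshared sites were weak, with 35.7 reads over the 3 control sites and 111 over the 5 mimic sites. The miRNA with the most reads at a site was the same in both libraries at 15 of the 18 shared sites. Counts of shared sites and shared leads are not given here for the rest of the libraries. Over the 26 sites and both libraries, 13 different miRNAs led a site. No minimum of reads was set, and some leads rested on few, such as miR-133a-3p with 3.40 and miR-26a-5p with 2.91 in COX1.

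The ND1 site, chrM:3467-3632, began 716 nucleotides after the start of the gene and stopped 75 before its end, and it held all ND1 reads of both libraries. miR-1a-3p had 2393 reads there in the control library and 3641 in the mimic library, 62.7% (61.2 to 64.2) and 68.6% (67.4 to 69.9) of the site. miR-206-3p followed with 525 and 605, and 99 miRNAs in control and 105 in mimic had at least some fraction of a read at this site. Below these, miR-199a/b-3p had 87.4 and 98.1 reads, miR-196a-5p had 75.05 and 99.3, and miR-142a-3p had 68.7 and 73.5. miR-155-5p, a miRNA of activated immune cells, had 24.6 and 37.7 reads, of 25.6 and 44.1 on all mitochondrial mRNAs and tRNAs.

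The TrnM site, chrM:3845-3898, was of the opposite kind, with nearly all reads from 1 miRNA. It began at the first base of the tRNA and stopped 15 bases before its end. miR-21a-5p, a miRNA known to rise in injured and remodelling tissue, had 3709 of 3750.0 reads in the control library and 4234 of 4287 in the mimic library, or 98.9% and 98.8%. The next miRNA, miR-3967, had 12.6 and 8.79 reads. The complement of the miR-21a-5p seed lies at 3861 to 3866, in capitals in the TrnM sequence above, and pairing without a gap runs over 7 bases from base 1 of the miRNA.

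This was also the strongest peak of miR-21a-5p anywhere. It ranked 1 of 1909 miR-21a-5p peaks in the control library and 1 of 1926 in the mimic library, and held 48.8% (47.7 to 49.9) and 50.9% (49.8 to 52.0) of all reads of that miRNA. The best nuclear peak of miR-21a-5p had 250.0 reads in control and 296 in mimic. At the neighbouring site, chrM:3914-3997, which starts at the first base of ND2, miR-21a-5p had 37.4 reads in the control but 7.48 in the mimic library, where let-7b-5p led with 18.4.

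The 4 ND5 sites each had a miRNA make-up of their own. At site 1, chrM:12696-12782, miR-206-3p had 401 reads in control and 551 in mimic, 82.0% and 80.3% of the site. At site 2, chrM:12933-13017, miR-24-3p, a broadly expressed miRNA, had 159 and 253 reads, 78.2% and 73.2%. Site 3, chrM:13110-13228, was shared by miR-206-3p with 251 and 306 reads, miR-1a-3p with 159.8 and 245, miR-133a-5p with 108 and 129, and miR-143-3p with 61.9 and 77.6.

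Site 4, chrM:13289-13546, which stopped 19 nucleotides before the end of ND5, was led by miR-1a-3p with 516 reads in control and 736 in mimic, ahead of miR-206-3p with 165 and 218. For miR-24-3p the ND5 peak was its strongest in either library, with 96.8 and 178 reads against 86.5 and 105 in its best nuclear peak. The ND5 peak of miR-133a-5p likewise ranked 1 in both, with 108 and 129 reads against 28.2 and 54.3 in its best nuclear peak.

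In ND4 the main site, chrM:11383-11539, stopped 5 nucleotides before the end of the gene. miR-142a-3p had 209 reads there in the control library (23.9% of the site) and 175 in the mimic library (18.6%). miR-206-3p had 165 and 176, miR-1a-3p 106 and 172, and let-7c-5p 110.0 and 109, so that no miRNA dominated. The strongest miR-142a-3p peak of each library lay here, with 181 and 175 reads, against 17.1 and 18.6 in its best nuclear peak. No complement of bases 2 to 7 of miR-142a-3p was found in it, but a run of 7 bases pairs from base 3 of the miRNA, shown in capitals for the peak of the control library:
ND4, miR-142a-3p, chrM:11455-11539: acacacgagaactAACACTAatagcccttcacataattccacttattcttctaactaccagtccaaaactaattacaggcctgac

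CYTB held 4 sites with at least 50 reads in each library, and a different miRNA led each of them in the control library. let-7b-5p led site 1, chrM:14172-14249, with 48.2 and 59.4 reads in the control and mimic libraries (44.4% and 41.5%). miR-142a-3p led site 2, chrM:14261-14340, with 49.8 and 30.6 (41.4% and 45.1%), where 8 bases from base 1 pair with the CYTB sequence shown above. At site 3, chrM:14961-15113, let-7c-5p led in the control library with 37.6 reads (47.2 in the mimic library), and miR-1a-3p led in the mimic library with 63.3 (18.2 in the control). Site 4, chrM:15190-15261, was a miR-1a-3p site with 101 and 139 reads (68.5% and 69.8%).

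Of the sites in ND2 and COX1, miR-1a-3p led ND2 site 2, chrM:4738-4840, with 28.7 and 22.1 reads, and COX1 site 1, chrM:5480-5688, with 33.0 and 36.5. miR-199a/b-3p, which is abundant in fibroblasts, led COX1 site 2, chrM:5828-6023, with 20.02 reads in control and 39.4 in mimic. A weaker ND2 site at chrM:4581-4675 was led by miR-196a-5p with 4.91 and 14.0 reads. The ND6 site on the minus strand, chrM:13585-13703, was led by miR-30b-5p with 8.76 and 17.2 reads (59.2% and 47.5%), and the ND3 site, chrM:9459-9548, by miR-199a-5p with 3 and 4.

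**Figure D2:**
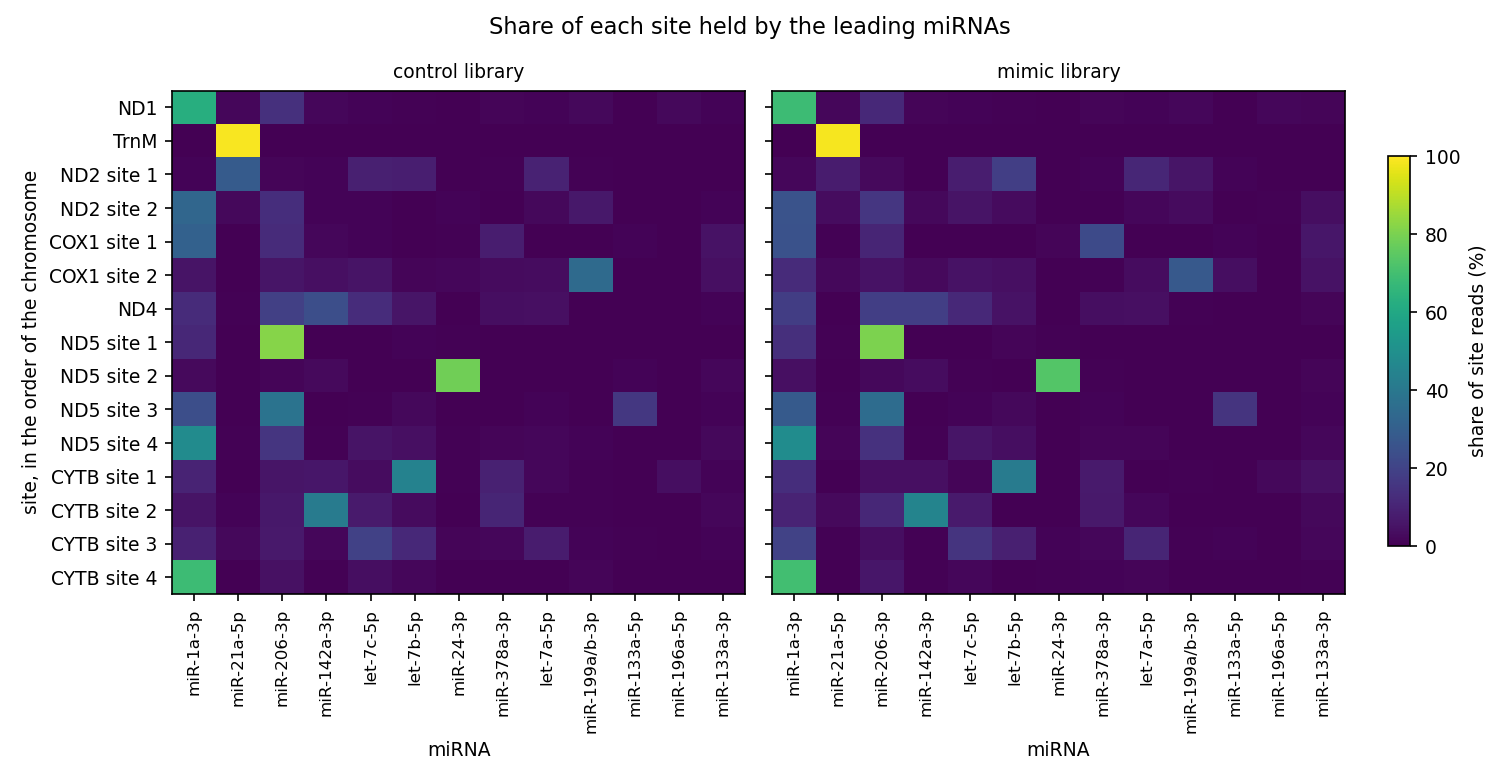
Percent of the reads of each of the 15 sites with at least 50 reads in both libraries that each leading miRNA held, sites in chromosome order, control library on the left and mimic library on the right. TrnM is almost wholly miR-21a-5p, ND5 site 1 miR-206-3p and ND5 site 2 miR-24-3p in both libraries, while ND4 is spread over several miRNAs.

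Of 560 miRNA names in each library, 183 in control and 198 in mimic had a read or a fraction of one there, 139 of them in both. miR-1a-3p, miR-21a-5p and miR-206-3p together had 74.4% of the reads in control and 75.2% in mimic, and 18.8% and 19.3% of all other chimeric reads. They were picked as the 3 with the most mitochondrial reads, and the 3 leading miRNAs of the other reads held 36.4% and 39.1% of those. The 10 miRNAs with the most mitochondrial reads held 86.7% and 86.6%, and the 10 leading miRNAs of the other reads held 58.1% and 60.4% of those. Most reads sat in few miRNA peaks, since the 83 control and 95 mimic miRNA peaks with at least 10 reads held 89.4% and 90.4% of the reads, whereas 47.3% and 45.4% of the miRNA peaks had under 1 read. Peaks were deep: 51.7% of mitochondrial peaks in control and 37.9% in mimic had at least 100 reads, against 1.23% and 1.42% of other peaks.

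miR-1a-3p had 29.0% (28.2 to 29.8) of the mitochondrial mRNA and tRNA reads in the control library and 34.0% (33.3 to 34.8) in the mimic library, against 10.9% and 12.6% of the remaining reads. Without the ND1 peak its share was 13.1% and 15.8%. miR-206-3p had 13.2% (12.6 to 13.8) and 12.8% (12.2 to 13.3), against 6.21% and 5.12%. miR-21a-5p had 32.2% (31.4 to 33.1) and 28.4% (27.7 to 29.2), against 1.71% and 1.61%, or 18.9 and 17.6 times as much, the highest ratio among the 18 miRNAs that had 50 or more mitochondrial reads per library. Without the TrnM peak the share of miR-21a-5p was 1.62% and 1.29%, so its excess lay in that 1 peak.

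Beyond these, 3 further miRNAs were among the 5 with the highest ratio of shares. miR-142a-3p had 3.05% (2.75 to 3.37) of the mitochondrial reads in control and 2.10% (1.88 to 2.34) in mimic, 8.46 and 6.86 times its share elsewhere, and 31.4% and 30.2% of all its reads fell on mitochondrial mRNAs. miR-133a-5p had 0.993% and 0.975%, 3.97 and 2.83 times its share elsewhere. Most of its mitochondrial reads, 108 and 129, lay in 1 ND5 peak. miR-196a-5p had 0.742% and 0.803%, 2.68 and 3.12 times. Most of its mitochondrial reads, 75.05 and 99.3, lay in the ND1 peak. Shares of these 2 miRNAs without those peaks were not calculated. miR-155-5p, with 25.6 and 44.1 reads, was below the minimum of 50 reads, but 42.9% and 40.2% of its reads were on these RNAs.

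Most abundant miRNAs had a lower share of the mitochondrial mRNA and tRNA reads than of the remaining reads. Of 39 miRNAs that had 1000 or more reads per library, 34 had a lower share on these RNAs in both libraries. Of the 34, 26 were at least 2-fold lower, and 5 of the 39 had a higher share in both. Shares add to a fixed total, and miR-1a-3p, miR-21a-5p and miR-206-3p together had 74.4% and 75.2%, against 18.8% and 19.3% elsewhere. This by itself lowers the shares of the other miRNAs, so the counts do not show that each was scarce. The counts were not repeated without the TrnM and ND1 peaks. miR-133a-3p, the most abundant of all, had 109.9 reads in control and 180.2 in mimic, 0.922% (0.759 to 1.11) and 1.17% (1.01 to 1.35), against 19.3% and 21.4% of the remaining reads. The other arm of the same hairpin, miR-133a-5p, was above its library share on these RNAs, with most of its reads in 1 ND5 peak. miR-133a-3p was below its library share. The lowest ratios were those of the miR-29 family, known for collagen targets, and of miR-23b-3p: miR-29c-3p had 0 and 1.44 reads, miR-29a-3p 3 and 8.79, miR-29b-3p 4.03 and 4.58, and miR-23b-3p 4.02 and 7.30.

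let-7 miRNAs were abundant on these RNAs, but their share of the mRNA and tRNA reads together was below their share of the remaining reads. The 10 members with the seed GAGGUAG had 905 reads in control and 1155 in mimic, 7.59% and 7.50%, against 12.96% and 11.9% of the remaining reads. let-7c-5p had 2.395% and 2.21% against 3.03% and 2.74%, and let-7b-5p 1.88% and 1.80% against 2.14% and 1.91%. The miR-196 pair, with the shifted seed AGGUAGU, had 119 and 181 reads, 0.996% and 1.18% against 0.401% and 0.383%. miR-24-3p had 1.53% and 1.77% against 1.75% and 1.80%, and miR-378a-3p 1.13% and 1.32% against 2.19% and 2.58%. The TrnM peak held 31.5% and 27.8% of the reads behind these shares and was nearly all miR-21a-5p. Shares of the mRNA reads alone would thus be higher for these miRNAs, and were not calculated. The values therefore do not show whether a let-7 share on the mRNAs alone was above or below that elsewhere.

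The whole-muscle samples hold other cell types as well as fibres, and a difference in the number of cells of a type cannot be told apart from a difference in their RNA. Of 9 miRNAs listed for blood cells, endothelium, smooth muscle, fibroblasts, liver and neurons, counting miR-199a-3p with miR-199b-3p, 8 were in both libraries and 7 had mitochondrial reads in both. Their summed share of the mitochondrial reads was 5.21% in control and 4.15% in mimic, against 4.12% and 3.73% elsewhere. miR-142a-3p made up most of it, with 3.05% and 2.10% against 0.360% and 0.306% elsewhere. Without miR-142a-3p the sum was lower on the mitochondrial RNAs than elsewhere in both libraries. miR-223-3p, also of blood cells, had 3.06 and 3.93 reads, the endothelial miR-126a-3p 11.2 and 21.2, the smooth muscle miR-145a-5p 1.41 and 0, and the liver miR-122-5p was listed in neither library. The 3 muscle miRNAs had 43.1% and 47.9%, against 36.4% and 39.1% elsewhere. They did not go the same way, since miR-1a-3p and miR-206-3p were above their share elsewhere and miR-133a-3p was far below it. The part of cell type in the shares was not tested.

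**Figure D3:**
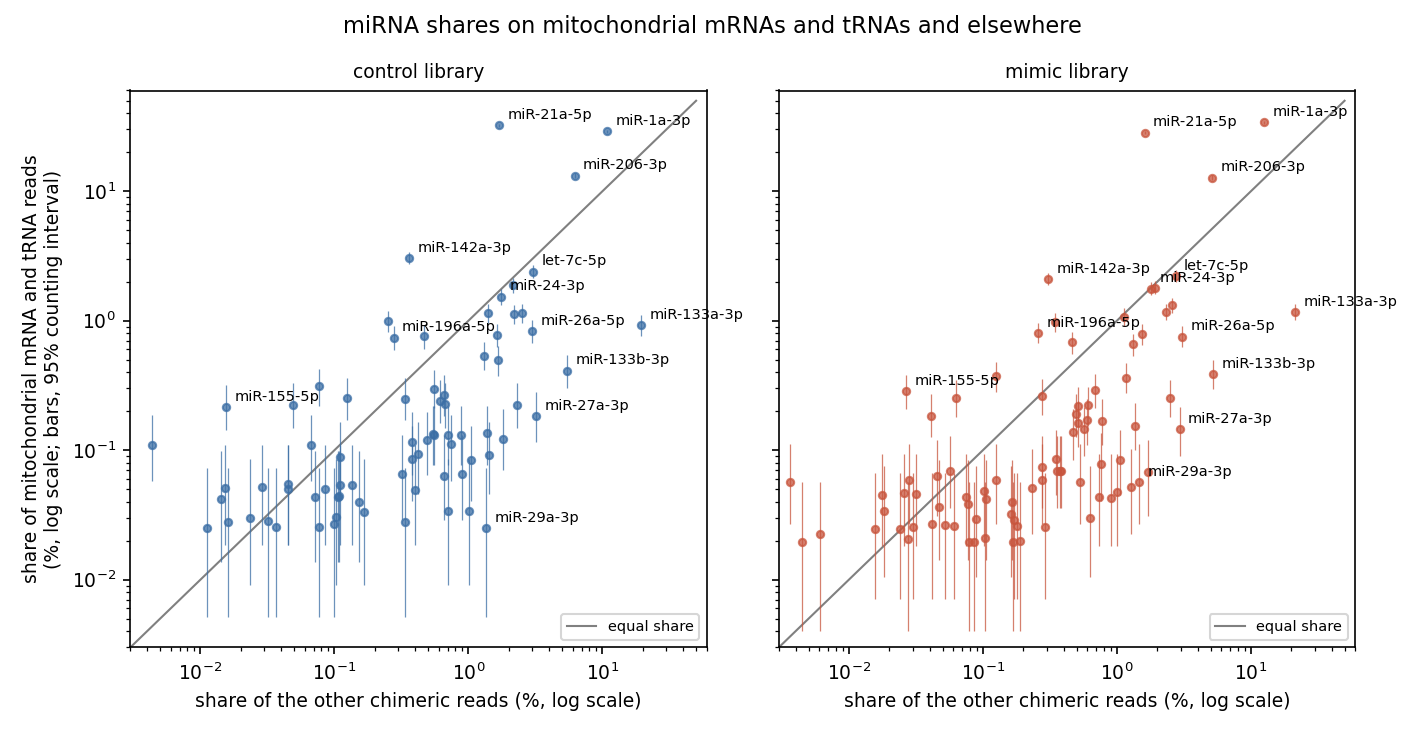
Share of each miRNA among the mitochondrial mRNA and tRNA reads (vertical, with 95% counting intervals) against its share of all other chimeric reads (horizontal), both in percent on log axes, for the control and the mimic library. miR-21a-5p, miR-1a-3p, miR-206-3p and miR-142a-3p lie above the line of equal shares in both, and miR-133a-3p, miR-27a-3p and miR-29a-3p lie below it.

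miR-1a-3p and miR-206-3p share their seed, and yet they divided the sites unequally. Of the reads of both miRNAs together, miR-206-3p had 88.0% at ND5 site 1 in the control library and 85.8% in the mimic library, 61.1% and 55.5% at ND5 site 3, and 60.8% and 50.6% at ND4. It had 18.0% and 14.2% at ND1, 24.2% and 22.8% at ND5 site 4, and 6.05% and 7.90% at CYTB site 4. In the rest of the libraries its share was 36.4% and 28.9%. The order ND5 site 1 above ND5 site 3, ND1 and CYTB site 4 was the same in the control and mimic libraries, and the counting intervals of ND5 site 1 did not overlap those of any other site. At CYTB site 3 the share was 42.6% in control and 15.5% in mimic, with intervals from few reads.

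**Figure D4:**
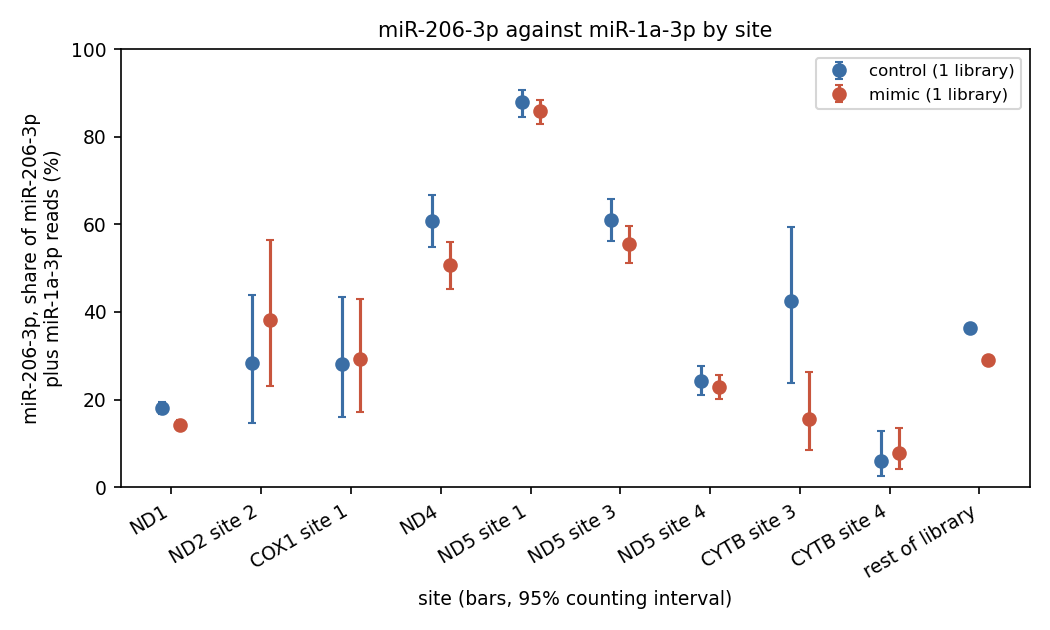
Reads of miR-206-3p as a percent of the reads of miR-206-3p plus miR-1a-3p at each site, with 95% counting intervals, for the control and mimic libraries, and over all chimeric reads outside the mitochondrial mRNAs and tRNAs (rest of library). ND5 site 1 is highest with 88.0% and 85.8%, and CYTB site 4 is lowest with 6.05% and 7.90%.

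Seed complements were then looked for in every peak whose miRNA had a sequence in the RefSeq table, which covered 65.8% of the mitochondrial reads in control and 60.6% in mimic and left out miR-1a-3p. A complement of bases 2 to 7 on the peak's strand was in the peak for 67.4% (66.4 to 68.5) of these reads in control and 68.2% (67.3 to 69.2) in mimic. Of all stretches of the same length and strand on the whole mitochondrial chromosome, 2.97% and 3.28% had it, weighted by the same reads. Most of the reads with a match were those of miR-21a-5p at TrnM, and without this pair 38.2% and 41.8% of reads had a match, against 4.29% and 4.75% of the stretches. The matched peaks with the most reads were then those of miR-206-3p, all at CATTCC. They had 525 reads in control and 605 in mimic in ND1, 286 and 551 at ND5 site 1, and 251 and 306 at ND5 site 3. A longer complement, to bases 2 to 8, was in the peak for 7.73% of reads in control and 8.96% in mimic. The share of stretches with the longer complement is not given here. Peak borders mattered for it: that of miR-24-3p at ND5 site 2 was in the mimic peak, from 12957, but not in the control peak, from 12960. The pairing at TrnM stops at base 7, and the longer complement was also missing for miR-206-3p at ND5 sites 1 and 3. The matches and the stretches are a description, not evidence of a site.

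Matches were commoner where reads were more numerous. Among miRNA peaks with under 1 read, 2.06% in control and 1.77% in mimic had a match, close to the 1.46% and 1.42% of stretches of the same length. The share of stretches with a match also rose with the number of reads. Among miRNA peaks with at least 10 reads, 15 of 59 (25.4%) and 15 of 64 (23.4%) had one, against 3.198% and 3.34% of the stretches. These matches are not independent, since miRNAs with the same seed can match the same bases. In 1 CYTB peak of the mimic library, let-7a-5p, let-7b-5p, let-7c-5p, let-7d-5p and let-7f-5p all matched at chrM:15068-15073. Over all miRNA peaks with a sequence, 48 of 697 (6.89%) and 49 of 855 (5.73%) had a match, against 2.01% and 1.98% of the stretches. Peaks with many reads and no such match included miR-142a-3p in ND4 and let-7b-5p at CYTB site 1, where the longest run of pairing was 6 bases, from base 17 to base 22 of the miRNA.

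Turning to the comparison of the mimic with the control library, the reads on mitochondrial mRNAs and tRNAs were 1.29 times as many in the mimic library (1.26 to 1.32), or 1.16 times after division by library totals. All chimeric reads were 1.12 times as many, and reads on the mitochondrial rRNA part were 0.978 times as many (0.959 to 0.998). Complex I genes together had 1.36 times as many reads (1.32 to 1.40), CYTB 1.32 (1.18 to 1.47), COX1 1.71 (1.42 to 2.07) and TrnM 1.14 (1.09 to 1.19). With 1 library per group these ratios compare 2 libraries, and the spread between animals is unknown.

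miR-1a-3p, the miRNA delivered by the mimic virus, had 3453 reads on these RNAs in control and 5236 in mimic, a ratio of 1.52 (1.45 to 1.58), beside 1.31 (1.28 to 1.33) on nuclear transcripts and 1.18 (1.13 to 1.22) on the rRNA part. Mature miR-1a-3p from the virus and from the muscle's own genes cannot be told apart in these reads. miR-206-3p had 1575 and 1964 reads, a ratio of 1.25 (1.17 to 1.33), whereas on nuclear transcripts its ratio was 0.934 (0.911 to 0.959). miR-21a-5p had 3841 and 4378, a ratio of 1.14 (1.09 to 1.19), beside 1.05 on nuclear transcripts. All miRNAs other than miR-1a-3p together had 8462 and 10162, a ratio of 1.201 (1.17 to 1.24), beside 1.099 on nuclear transcripts.

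Of the mitochondrial miRNA peaks, 492 had an overlapping peak of the same miRNA in the other library, which was 55.8% (52.5 to 59.2) of the control and 45.1% (42.2 to 48.1) of the mimic miRNA peaks, against 33.9% and 31.4% over whole libraries. They held 94.0% and 96.5% of the mitochondrial reads. All 83 control and all 95 mimic miRNA peaks with at least 10 reads were overlapped by a peak of the same miRNA, while of those with under 1 read 44.6% and 25.5% were. Whole-library counts by number of reads are not given here, so this overlap is not shown to be particular to mitochondrial peaks.

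Among 156 such pairs with at least 3 reads in both libraries, 32 (20.5%, 14.5 to 27.7) were at least 2-fold higher in the mimic library, beside 10.2% of all 6418 pairs of the libraries, and 5 (3.21%) were at least 2-fold lower, beside 5.66%. After division by library totals the counts were 21, beside 6.73%, and 8, beside 8.68%. Peak borders differed between libraries, however, and when miRNAs were counted over merged sites, 15 of 147 were at least 2-fold higher, beside 9.29%, and 6 lower, beside 5.5%. Of 66 pairs of peaks with at least 10 reads in both libraries, 9 were at least 2-fold higher, beside 6.7%, and 0 lower, beside 2.41%. At merged sites with at least 10 reads in both libraries, 2 of 70 were at least 2-fold higher, beside 5.57%, and 0 were lower, beside 2.16%. Of these 70, 58 had more reads in the mimic library, with a median ratio of 1.26, whereas over all 1992 such miRNAs at merged sites 59.9% had more reads in the mimic library and the median ratio was 1.09.

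The largest rises among peaks with at least 10 reads in both libraries were let-7c-5p in ND4, from 29.2 to 109 reads, miR-1a-3p in CYTB, from 12.5 to 40.5, and let-7b-5p in ND4, from 15.5 to 46.0. The values in ND4 followed the peak borders: the control library had 2 abutting peaks there and the mimic library 1, and over the merged site let-7c-5p had 110.0 and 109 reads and let-7b-5p 50.2 and 46.0. At CYTB site 3 the merged values for miR-1a-3p were 18.2 and 63.3 reads, a ratio of 3.48 (2.05 to 6.28). The largest falls under the same minimum were miR-142a-3p at CYTB site 2, from 49.8 to 30.6 reads (ratio 0.615, 0.383 to 0.990), miR-27a-3p in ND1, from 16.5 to 11.1 (0.668, 0.274 to 1.46), and miR-1a-3p in ND2, from 28.7 to 22.1 (0.768, 0.415 to 1.37), of which the first alone had an interval below 1. The minimum of 10 reads in both libraries leaves out a larger fall, that of miR-21a-5p at the first site of ND2, from 37.4 to 7.48 reads (0.200, 0.0712 to 0.430).

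**Figure D5:**
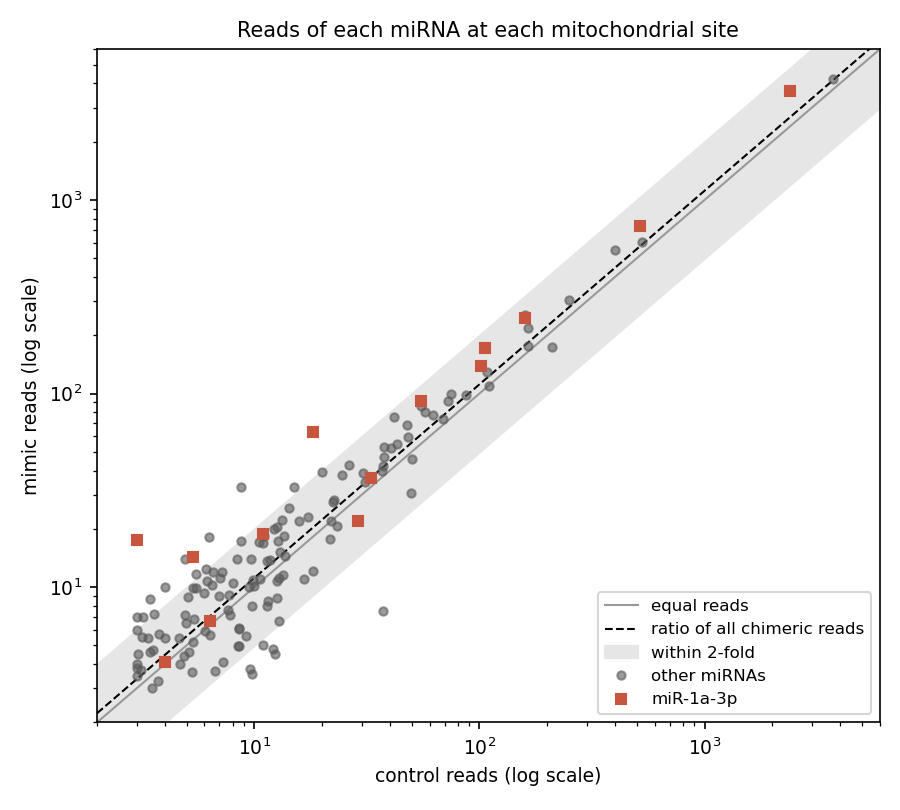
Reads of each miRNA at each merged mitochondrial site with at least 3 reads in both libraries, control (horizontal) against mimic (vertical), both log axes, with miR-1a-3p as squares, other miRNAs as circles, the ratio of all chimeric reads as a dashed line and the 2-fold band shaded. Points with many reads lie close to the dashed line or a little above it, and points outside the band include miR-1a-3p at CYTB site 3, above it with 18.2 and 63.3 reads, and miR-21a-5p at ND2 site 1, below it with 37.4 and 7.48 reads.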

How the data were processed

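Chimeric eCLIP libraries from 1 control and 1 mimic plantaris were used. The 2 input libraries of the series were not analysed here. The deposited peak lists give, for each miRNA in each peak, an estimated count of chimeric reads, mostly fractional and not scaled to library size; how a read was split is not given in the sources used here. Per the labels, the submitters' notes name the build mm10 and the tools UMI-tools 1.1.1, cutadapt 3.2, STAR 2.7.7a, Bowtie 1.2.3 and HOMER 4.11. The methods name mm9, CLIPper for peaks, removal of repetitive elements and of PCR duplicates, and an amplification with a miR-1 primer; whether these libraries passed through it is not stated, and its part in the share of miR-1a-3p was not tested.

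From these counts, reads were summed per gene, site and miRNA with Python 3.11.15, pandas 2.3.3, numpy 2.4.6 and SciPy 1.17.1. Shares have Clopper-Pearson, reads exact Poisson and ratios conditional binomial 95% intervals, on rounded reads; fractional assignment makes these approximate. Sites are overlapping or abutting peaks of either library, merged on 1 strand. Pairs of peaks between libraries are the largest overlaps of the same miRNA on the same strand. The counting steps were tested on simulated data. Mature sequences matched 542 of 658 miRNA names. Named in the text are the 13 protein genes, tRNA genes with at least 50 reads, the 10 peaks and the 10 miRNAs with the most reads, the 5 miRNAs with the highest and the 5 with the lowest ratio of shares, and the 3 largest rises and falls. Other sites and miRNAs were chosen after their values were seen, among them miR-155-5p, miR-3967 and miR-30b-5p. The members, lists and tests were chosen with earlier results of these data known. With 1 library per group, no test was made.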

Additional observations from a re-analysis of the deposited data

How the results depend on the processing

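No paired analysis was possible because control and mimic were a single library apiece, and no library could be left out in turn. Of 90 alternative values, 22 differed by less than the counting interval (or, for counts, by less than 1.5 times), and 68 moved. The order of control and mimic turned in 4 of 36 pairs of such values: for miR-1a-3p and miR-21a-5p by miRNA peaks, for miR-206-3p without ND1 and for the seed match with extended peaks. Below, pairs of values are control and mimic, and the settings with merged sites or without the TrnM peak were chosen after seeing the data. The share of reads on mitochondrial mRNAs and tRNAs was 5.62% and 6.51% from miRNA peaks with at least 1 read, 7.03% and 7.96% with at least 3, 3.54% and 3.97% without the ND1 peak, 3.57% and 4.36% without the TrnM peak, 0.943% and 1.08% by miRNA peaks in place of reads, and 5.60% and 6.42% with the rRNA part left out. The mimic to control ratio was 1.25 without ND1, 1.36 without TrnM, and 1.16 when divided by all reads or by reads outside chrM. With at least 3 reads, without ND1, without TrnM and by miRNA peaks, the share of miR-1a-3p was 30.5% and 35.8%, 13.1% and 15.8%, 42.2% and 47.1%, and 3.18% and 2.66%; that of miR-21a-5p was 33.9% and 29.9%, 46.5% and 42.5%, 1.62% and 1.29%, and 1.93% and 2.02%. Under the same settings miR-206-3p had 13.8% and 13.4%, 12.96% and 13.5%, 19.3% and 17.7%, and 2.84% and 2.57%, and tRNA genes had 33.0% and 29.2%, 46.6% and 42.5%, 0.281% and 0, and 4.88% and 2.94%. The high share of miR-21a-5p and of tRNA genes thus rested on the TrnM peak. The control miRNA peaks shared with the mimic were 63.1% with at least 1 read, 77.1% with at least 3 and 60.3% over merged sites, and 45.1% when counted from the mimic library. Reads with a seed match were 69.0% and 69.6% with at least 1 read, 71.6% and 73.0% with at least 3, 71.9% and 73.0% without ND1, 38.5% and 42.2% without TrnM, 7.73% and 8.96% for 7 bases, and 70.7% and 69.6% with peaks extended by 20 nucleotides. Of the 2-fold changes, 9 were higher and 0 lower with at least 10 reads, 21 and 8 after division by all reads, and 15 were higher over merged sites. Where a miRNA peak had under 1 read, which was so for 47.3% and 45.4% of them, the depth allowed no order among miRNAs.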
